A study of Mus musculus with 35 samples.

Results

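N6-methyladenosine (m6A) regions deep in last exons are stretches of messenger RNA that were enriched by an m6A antibody in wild-type (WT) mouse neural progenitor cells and that lay well past the start of the last exon of their gene. They were chosen by the deposited peak lists and by exon position, as the stretches present in all 4 m6A peak lists whose midpoint fell past the first 25% of the length of the last exon, in the direction of transcription, of the longest annotated transcript of 1 gene with 2 or more exons. There were 2011 such regions in 1741 host genes, out of 10892 regions present in all 4 lists. Position, presence in the lists and fold enrichment therefore entered the choice of the regions and are given as a description without a test. RNA levels by Mettl14 genotype and histone marks at host promoters did not enter it.

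m6A is the most abundant internal modification of messenger RNA. It is written by a methyltransferase complex in which METTL3 is the catalytic subunit and METTL14 its RNA-binding partner, mostly on adenosines within short motifs with a GGAC core. In mammalian transcripts it is concentrated around stop codons and in long exons, including the last exon, which usually holds the end of the coding sequence and the 3′ untranslated sequence. Reader proteins of the YTHDF family bind it, and YTHDF2 is known for recruiting the CCR4-NOT deadenylase complex, which shortens the poly(A) tail and starts decay of the transcript.

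The study compared cultured embryonic neural progenitor cells that were homozygous knockout (KO) or heterozygous (Het) for Mettl14 with WT cells. The targeted allele was made in mouse embryonic stem cells, carried loxP sites, and was recombined by crossing Mettl14 f/+ males to EIIa-Cre females, whose Cre acts in the early embryo. The heterozygous offspring were intercrossed to give conventional knockouts, so the deletion was not limited to neural cells. Cells came from embryos and were grown in culture as lines with numbers of their own. The labels do not say which lines, if any, share a litter. RNA was sequenced in batch 1 from 3 KO, 3 Het and 3 WT cultures and in batch 3 from 2 KO and 2 WT cultures, always as poly(A)+ RNA. Methylated-RNA immunoprecipitation (meRIP-seq) was done in WT cells only, as 2 m6A immunoprecipitates (here IP A and IP B) each set against 2 inputs, which gives the 4 lists. They are therefore not 4 independent samples. In 2 KO lines (530 and 534) and 2 WT lines (532 and 541), chromatin carrying acetylated lysine 27 of histone H3 (H3K27ac), a mark of active promoters, or its trimethylated form (H3K27me3), the mark of Polycomb repression, was also precipitated.

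Sequence could be read for the few regions that overlap the RefSeq promoter window of a neighbouring gene, since those windows (GRCm38.p6, the assembly of mm10) were the only genomic sequence used here. There were 6 such regions, in Mrpl43, Nkx2-2, Pcif1, A930004D18Rik, Dhrs13 and Prdm8. They are shown because they give the letters of regions that an m6A antibody enriched, and they were not selected for their signal. The letters GGAC were searched on both strands, overlapping matches included. On the transcript strand, GGAC occurred 3 times in the 183 bases of the Pcif1 region that could be read, 3 times in 250 bases of A930004D18Rik, 1 time in 146 bases of Nkx2-2 and 1 time in 106 bases of Mrpl43. On the other strand it occurred 0, 1, 1 and 0 times in the same 4 genes in that order. No GGAC was on the transcript strand of the 30 bases of Dhrs13 or the 46 bases of Prdm8, and Prdm8 had 2 on the other strand.

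For comparison, among all 32851 RefSeq promoter windows cut to the same length, GGAC stood on the strand of the gene in 47.5% at the Pcif1 length, 58% at the A930004D18Rik length, 40.2% at the Nkx2-2 length and 31.4% at the Mrpl43 length, so a match is common in windows of this size. Each line gives 30 bases on the transcript strand, 5′ to 3′, written as DNA, with 1 GGAC and the base after it in capitals. The lines hold all 4 GGACT of the 8 matches on the transcript strand, and the GGACC of Mrpl43, the only match there. The 2 GGACA, of Pcif1 and A930004D18Rik, are not shown. Pcif1 encodes the enzyme that methylates the adenosine next to the mRNA cap, Nkx2-2 a homeodomain factor of ventral neural progenitors and Mrpl43 a subunit of the mitochondrial ribosome.
Pcif1 (chr2:164891155-164891184, plus strand): cacagactgctaGGACTcagcctcagggct
Pcif1 (chr2:164891192-164891221, plus strand): ggggtggcagcaGGACTtgagctgccaggg
Nkx2-2 (chr2:147183988-147184017, minus strand): aggcccagcagtGGACTtggtgagcgccgc
Mrpl43 (chr19:45005666-45005695, minus strand): accaggcgctttGGACCgtgagagggatag
A930004D18Rik (chr2:18027090-18027119, minus strand): gcacgtactataGGACTggaccacgcgtcc

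Both Pcif1 stretches and those of Nkx2-2 and A930004D18Rik read GGACT at the capitals, and that of Mrpl43 reads GGACC. In the A930004D18Rik line a second match, GGACC, follows the capitals directly in lower case. Nkx2-2 and A930004D18Rik each lie opposite an annotated exon on the other strand, and the peak lists carry no strand. Fold enrichments were 6.1 or more in all 4 lists for A930004D18Rik, 3.55 or more for Nkx2-2, 3.34 or more for Pcif1 and 2.83 or more for Mrpl43.

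Within last exons the regions thinned out with distance from the exon's 5′ end. Their midpoints lay at a median of 45.9% of the exon (quartiles 33.8% and 62.4%, highest 95.9%). Of the 2011 regions, 1161 lay between 25% and 50% of the exon, 585 between 50% and 75%, and 265 in the last 25%. In bases, the midpoint lay a median of 949 from the start of the exon and 881 before its end, with quartiles of 433 and 1711 before the end. The last exons that hosts carried were long, with a median of 1835 bases, against 1066 bases over all 20343 spliced genes of the annotation. The shared stretch had a median length of 166 bases (quartiles 96.5 and 301, range 2 to 1794). The annotation used gives exons without coding limits, so coding and untranslated sequence were not told apart.

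**Figure D1:**
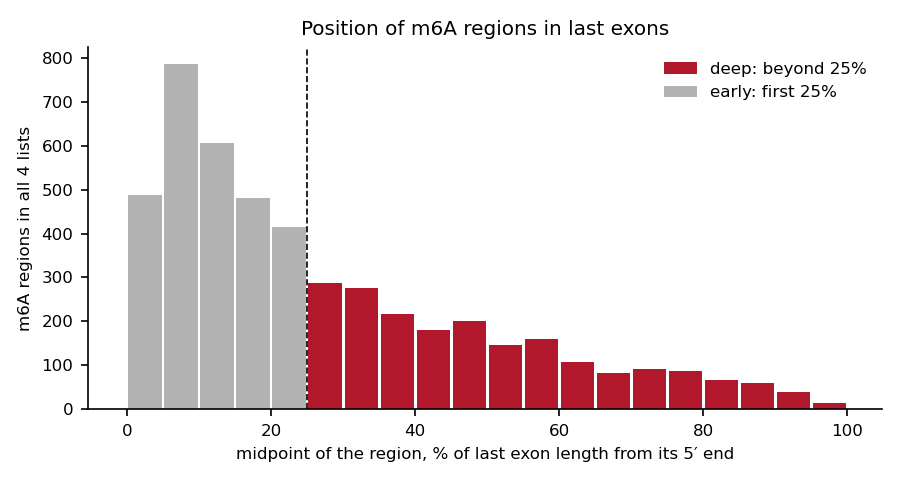
Number of m6A regions present in all 4 lists (y axis) by the place of their midpoint in the last exon, in steps of 5% of its length from the 5′ end (x axis). Counts peaked at 786 between 5% and 10%, and beyond the dashed line at 25% they were 288 in the first step and 13 in the last.

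The line at 25% cuts through a continuous distribution. Just inside it were regions of Arhgap6 at 25.05%, Gfra2 at 25.05% and Map3k10 at 25.08%, with lowest folds over the 4 lists of 4.62, 3.41 and 4.26. Just outside it were regions of Lactb at 25%, Mul1 at 24.98% and Kcnj2 at 24.98%, with 3.69, 4.54 and 6.59.

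Host genes were nearly all protein coding. RefSeq gave a biotype for 1650 of the 1741 hosts, of which 1635 (99.1%) were protein coding and 12 were long noncoding RNAs, against 90.4% and 8.27% of the spliced genes with a biotype. Only 17 regions overlapped an exon annotated on the opposite strand. There were also 55 that lay past the 3′ end of a shorter annotated transcript of the same gene. Regions were found on 20 chromosomes, from 204 on chromosome 7 to 35 on chromosome X.

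Enrichment over input was moderate and similar across lists. The authors' median folds for the 2011 regions were 4.24 and 4.27 in the 2 lists of IP A and 4.02 and 4.04 in those of IP B. Peaks of IP B were wider, with median widths of 367 and 354 bases, against 231 and 211 for IP A. Between lists that share an input, the folds of 2 different IPs stayed within 1.5-fold of each other for 99.1% of regions (input 1) and 99.4% (input 2). Between IP A with input 1 and IP B with input 2, which share no library, it was 97.3%. Regions were kept only where all 4 lists had a peak, so this likeness is no measure of reproducibility. The lowest fold of the 4 had a median of 3.74 and a range of 1.68 to 10.5, with 233 regions at 5 or more and 366 under 3. Read depth behind a peak is unknown, so no error is attached to a fold.

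The highest folds that held in all lists were in genes with different roles. The region with the highest was in Lnx2, an E3 ubiquitin ligase known to bind the Notch regulator Numb (chromosome 5, 147018323 to 147018577, mm10, minus strand, exon 10 of 10). Its folds were 10.5 and 11 for IP A and 11.9 and 12.8 for IP B. Next came Cyb5rl, a cytochrome b5 reductase relative (chromosome 4, 107084268 to 107084346), with 9.11 and 8.75 for IP A and 10.6 and 8.51 for IP B. In Pth1r, the parathyroid hormone receptor (chromosome 9, 110722160 to 110722600), the folds were 8.35 and 11.4 for IP A and 11 and 15.8 for IP B, so that input 2 gave the higher value with either IP. Sertm1 had the same order, with 7.84 and 12 for IP A and 10.7 and 13.4 for IP B. In Pars2, the mitochondrial prolyl-tRNA synthetase, the region lay 69.7% into exon 2 with folds of 9.52 and 8.75 for IP A and 8.11 and 8.49 for IP B. Syt14, a synaptotagmin, had 8.24 and 8.76 for IP A and 8.04 and 8.28 for IP B. The remaining 6 were Alg8, a glucosyltransferase of N-glycan assembly, Ror1, a receptor for Wnt5a, Btbd9, Ndor1, a flavoprotein of cytosolic iron-sulfur assembly, Proser2 and Zbtb49, a zinc finger factor, with lowest folds between 6.95 and 7.72.

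**Figure D2:**
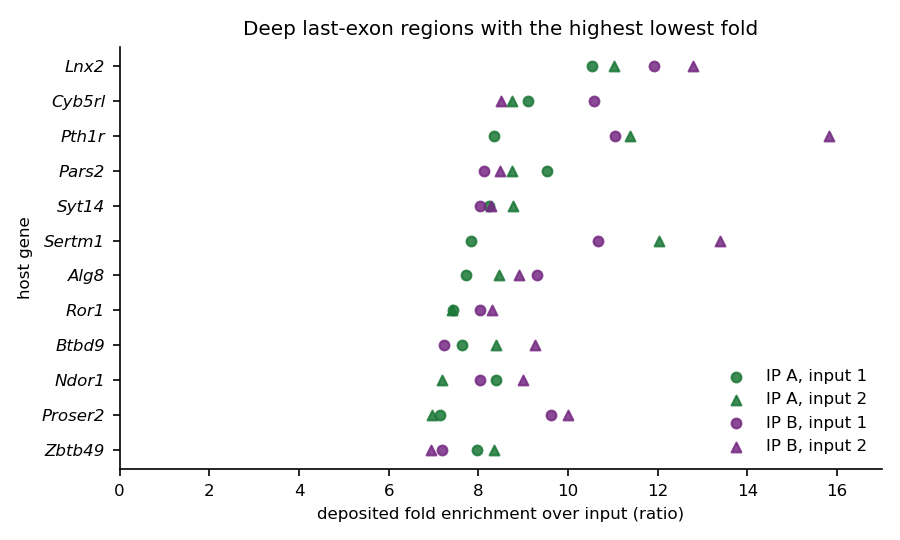
Deposited fold enrichment over input (x axis) in each of the 4 m6A lists for the 12 deep last-exon regions with the highest lowest fold, 1 region per host gene (y axis). Color stands for the IP and marker shape for the input; the 4 values of Lnx2 lie between 10.5 and 12.8, and those of Pth1r between 8.35 and 15.8.

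Most hosts carried 1 region (1518 of 1741), while 184 carried 2, 32 carried 3, 6 carried 4 and 1 carried 5. Regions of 1 gene are not independent, and 250 of the 493 regions in such genes fell within the same peak as another of them in at least 1 list. The gene with 5 was Peg10, an imprinted gene derived from a retrotransposon, whose last exon of 6393 bases held regions at 45.6, 51.6, 56.9, 64.7 and 73.9% with folds of 2.7 to 3.92. Cspg4, the NG2 proteoglycan of oligodendrocyte progenitors, had 4 at 30.8, 50.5, 69 and 83.9% of its last exon (2.44 to 4.97). Mast4, a kinase gene, had 4 between 25.9% and 59% (3.71 to 5.32), and the zinc finger genes Rlf and Zbed4 had 4 each (2.74 to 5.03 and 2.79 to 4.23), these being 4 of the 6 genes with 4, taken by total length. Many hosts also carried regions elsewhere: 564 had one in the first 25% of the last exon, which is 32.4% of the hosts and 22.4% of the 2514 genes with an early region. A region in an internal exon was found in 269 and one in the first exon in 202, and 924 had no other exonic region in the same transcript.

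Set beside the other places within exons, deep regions were enriched by similar folds. The median of the lowest fold was 3.74 for deep regions, 3.7 for the 2780 regions in the first 25% of last exons, 3.4 for the 2505 in internal exons and 3.65 for the 1092 in first exons. Median lengths were 166, 183, 170 and 112 bases in the same order. The median lowest fold was higher in the 463 regions of single-exon genes (3.87) and the 1942 regions with a midpoint in no exon of these transcripts (4.19), which had median lengths of 194 and 107 bases. Among deep regions the mean fold over the lists had a median of 4.18 between 25% and 50% of the exon, 4.19 between 50% and 75%, and 4.41 in the last 25%, where the shared stretches were shorter (median 129 bases, against 180 between 25% and 50%).

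Each RNA library held 14087371 to 19724097 fragments in all loci. RNA values are given in CPM, the count of a gene relative to the size of its library as scaled by TMM factors, and "called" means an adjusted p under 0.05 by the quasi-likelihood F test of edgeR. Mettl14, which hosted no region, had 23.2, 20.8 and 23.2 CPM in KO and 23.4, 25.1 and 22.9 CPM in WT of batch 1, and 31.9 and 23.8 CPM in KO and 39.8 and 37.1 CPM in WT of batch 3 (log2 fold change −0.24, SE 0.099, adjusted p = 0.046). The deletion covers part of the gene, and a count over the whole locus is no measure of it. All 8 neural progenitor markers were detected in every library. Their summed level was 6006 to 6524 CPM in KO, 10707 to 11417 CPM in Het and 10059.6 to 10879 CPM in WT of batch 1, and 6735 to 6927 CPM in KO and 10740.2 to 10932 CPM in WT of batch 3, with 2 called higher and 4 lower. Neuronal markers summed to 1008 to 1212 CPM in KO and 1132 to 1186 CPM in WT of batch 1, and to 855 to 1027 CPM in KO and 1053 to 1180.2 CPM in WT of batch 3 (1 of 7 higher, 2 lower). Most of that sum was Map2, which was not called (means of 1079 CPM in KO and 1138 CPM in WT of batch 1). The marker called higher was Dcx (means of 29.7 CPM in KO and 3.67 CPM in WT of batch 1), and those lower were Snap25 and Syt1. Astrocyte markers summed to 256 to 486 CPM in KO and 356 to 474 CPM in WT of batch 1, and to 77.7 to 95 CPM in KO and 211 to 255 CPM in WT of batch 3 (3 of 5 higher, 2 lower). Those called higher were Gfap, Aqp4 and S100b (log2 fold changes over batches 3.48, 2.62 and 1.46). Those lower were Aldh1l1 and Aldoc (−2.11 and −0.67), which had the higher levels in WT and so weighed most in the WT sums. For oligodendrocyte markers, of which Olig2, Sox10 and Cspg4 are hosts, the sums were 431 to 448 CPM in KO and 679 to 783 CPM in WT of batch 1, and 702 to 723 CPM in KO and 895 to 921 CPM in WT of batch 3 (2 of 6 higher, 2 lower). Fibroblast and pericyte markers were low, at 6.56 to 8.52 CPM in KO and 0.82 to 1.28 CPM in WT of batch 1, and 4.95 to 5 CPM in KO and 1.56 to 3.15 CPM in WT of batch 3 (2 of 6 higher). Microglial and endothelial markers summed to at most 2.26 and 5.85 CPM in any library. The part of these shifts in the results on hosts was not tested, and fewer cells of a type and less RNA per cell cannot be told apart in bulk RNA.

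The comparison of KO with WT asks how RNA levels of genes with such regions stood where the m6A writer lacked METTL14. Host RNA was more often higher than lower in KO cells. Of the 1741 hosts, 1616 could be tested over both batches: 54 share a locus value with another gene, 58 have no value under the same name in both tables and 13 fell below the low-count filter. In KO against WT over batches, 816 hosts (50.5%) were called higher and 332 (20.5%) lower, where of all 13726 genes tested 32.7% were called higher and 30.6% lower. The median log2 fold change was 0.28 for hosts (quartiles −0.17 and 0.69) and 0.03 for all genes tested (quartiles −0.40 and 0.50). Hosts were chosen in WT cells only, among genes with enough reads there for peaks to be called.

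The same direction was seen, to different degrees, for hosts of regions at other places. Of genes with a region in the first 25% of the last exon, 46.6% were higher and 22.9% lower (n = 2363, median log2 fold change 0.18). For internal exons the shares were 45.4% and 24.2%, and for first exons 42.1% and 31.3%. Genes of a single exon, a separate class by the rule, had 55.3% and 15% (n = 226). Genes with no exonic region had 26.3% higher and 33.7% lower, with a median of −0.06. Loci that join genes were counted in that group under their joint name, also where a gene in them hosts a region. So were genes whose only regions lay on exons of several genes. Since many genes host regions at more than 1 place, these groups overlap. Hosts with both a deep and an early region had 59.3% higher and 17.4% lower (n = 533), hosts with a deep region and none early had 46.2% and 22.1% (n = 1083), and genes with an early region and none deep had 42.9% and 24.5% (n = 1830). Differences between these shares were not tested, because the groups were formed with the results known.

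**Figure D3:**
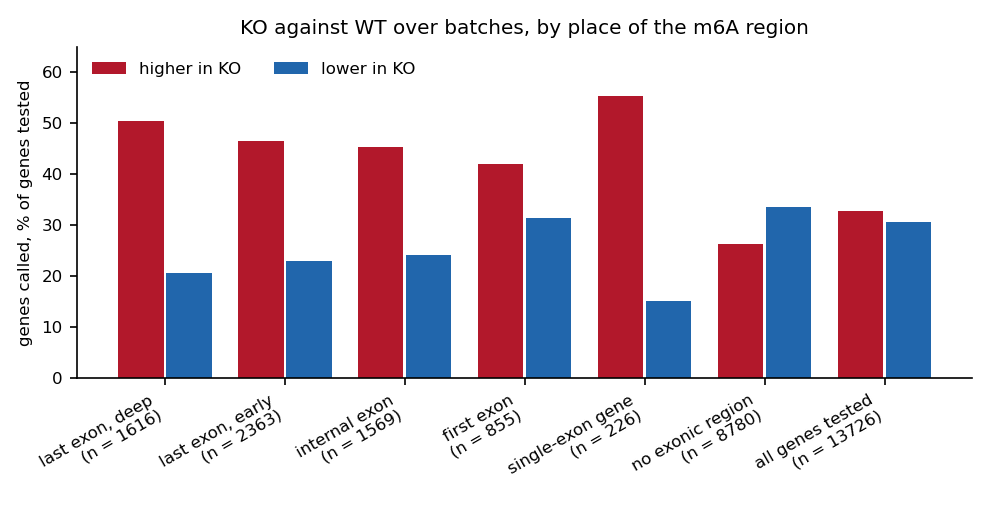
Share of genes called higher (left bar) and lower (right bar) in KO against WT over batches, in % of genes tested (y axis), by the place of the m6A region in the gene (x axis, groups overlap). Deep last-exon hosts had 50.5% higher and 20.5% lower, against 26.3% and 33.7% for genes with no exonic region, a group that includes loci that join genes.

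More hosts were higher than lower in each batch alone. In batch 1 (3 KO, 3 WT), 824 of 1622 hosts were higher and 403 lower (50.8% and 24.8%), against 34.3% and 35% of all genes tested. In batch 3 (2 KO, 2 WT), 518 of 1646 were higher and 156 lower (31.5% and 9.48%), against 17.3% and 14.4% of all genes tested. The median log2 fold changes of hosts were 0.26 and 0.26, and those of all genes 0.00411 and 0.00045. The batches share no library. Fitted alone, they called 424 hosts higher in both and 125 lower in both, and 18 in opposite directions. These counts were not made for all genes tested, so they have no share to be read beside. Across the 1598 hosts tested in both, log2 fold changes had the same sign for 78.3% and Pearson's r was 0.718, against 76.4% and 0.757 over all 12357 genes, which are not independent replicates. The KO effect differed in size between batches for part of the hosts. The interaction term was called for 359 of 1616 hosts (22.2%), against 18.9% of all genes tested.

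**Figure D4:**
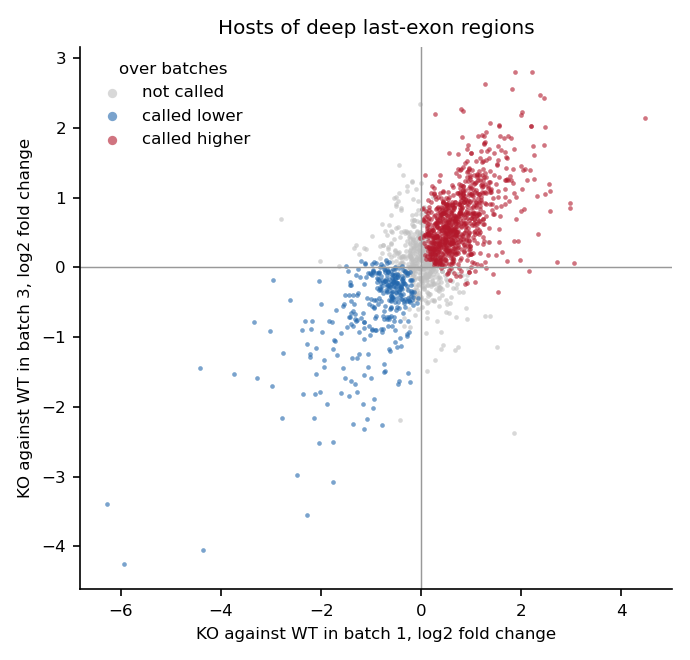
Log2 fold change of KO against WT in batch 3 (y axis) and in batch 1 (x axis) for each of the 1598 hosts of deep last-exon regions tested in both, each batch fitted alone. Color gives the call over batches; 78.3% of points lie in the quadrants of equal sign, most of them in the upper right.

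Shares also varied with expression level, exon length and number of regions. All genes tested were divided into 5 groups of equal size by their mean log2 CPM over the 13 libraries. In the lowest group 30.1% of 93 hosts and 28.7% of other genes were higher, with median log2 fold changes of 0.11 and 0.17. In the next 3 groups 49.2%, 55.3% and 53.9% of hosts were higher, against 34.7%, 33.4% and 30.5% of other genes. In the highest group 46.7% of hosts were higher and 24.6% lower, against 24.8% and 45.9% of other genes. Divided into 4 groups of equal size by last exon length, the group with the shortest exons (up to 637 bases) had 36.4% of hosts and 24.4% of other genes higher. The next groups had 48.1% and 50.8% of hosts higher, against 28.6% and 31.5% of other genes, and the group with the longest exons (over 2556 bases) had 56.6% of hosts and 35.3% of other genes. Hosts with 1 region had 49.4% higher (median 0.27, n = 1407), those with 2 had 56.6% (median 0.38, n = 173) and those with 3 to 5 had 63.9% (median 0.52, n = 36).

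By enrichment, hosts were divided into 3 groups of equal size. Those with the highest folds had 54.6% higher and 15.9% lower, those in the middle 52.1% and 20.3%, and those with the lowest folds 44.8% and 25.5%. The shares higher were in the same order in batch 1 (57.7%, 52.6% and 42.1%) and not in batch 3 (31.1%, 33.8% and 29.6%). By position, hosts whose region lay in the last 25% of the exon had 47.2% higher, those between 50% and 75% had 52.2% and those between 25% and 50% had 50.3%. Of 44 hosts whose region lay past a shorter annotated 3′ end, 18 (40.9%) were higher and 13 (29.5%) lower, against 32.7% and 30.6% of all genes tested. Zinc finger genes named Zfp, a group singled out after the data were seen, made up 129 of the hosts tested, with 98 higher and 7 lower. Zfp genes with no deep region had 98 higher and 17 lower of 173. Without Zfp genes, 48.3% of hosts were higher and 21.9% lower.

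Among the hosts that rose most were genes of microRNA silencing, the lysosome, RNA processing and the synapse. Tnrc6c, a GW182 protein that joins Argonaute to the deadenylases in microRNA silencing, had 618, 651 and 664 CPM in KO and 115, 122 and 129 CPM in WT of batch 1, and 645 and 374 CPM in KO and 86.3 and 97.8 CPM in WT of batch 3. All KO libraries lay far above all WT libraries, although those of batch 3 stood apart from each other (log2 fold change 2.43, SE 0.12, adjusted p = 1e-08, with 2.37 in batch 1 and 2.47 in batch 3 alone). Its region (chromosome 11, 117761985 to 117762114, plus strand, exon 22) sat 52.8% into the last exon with folds of 5.01 to 6.36. Naglu, the lysosomal enzyme that degrades heparan sulfate, had 81.3, 60.6 and 64.5 CPM in KO and 14.1, 15.8 and 13.4 CPM in WT of batch 1, and 59.1 and 60.7 CPM in KO and 7.61 and 9.55 CPM in WT of batch 3. KO libraries of both batches lay close together and well above WT (log2 fold change 2.47, SE 0.13, adjusted p = 1.6e-08, with 2.22 in batch 1 and 2.81 in batch 3 alone). Its region (chromosome 11, 101077053 to 101077465, plus strand, exon 6) sat 71.1% into the exon. Lsm10, a subunit of the U7 particle that processes histone transcripts, had 60.7, 58.3 and 60.3 CPM in KO and 13.5, 15.6 and 14.1 CPM in WT of batch 1, and 44.6 and 60.7 CPM in KO and 12.1 and 10.4 CPM in WT of batch 3. Here too KO and WT stood clearly apart in both batches (log2 fold change 2.12, SE 0.096, adjusted p = 5.4e-09, with 2.02 in batch 1 and 2.23 in batch 3 alone), and the region (chromosome 4, 126097944 to 126098292, plus strand, exon 2) had folds of 5.98 to 7.72.

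Shisa9, an auxiliary subunit of AMPA receptors, had 18.7, 41.2 and 28.8 CPM in KO and 0.883, 1.79 and 1.22 CPM in WT of batch 1, and 8.09 and 3.91 CPM in KO and 1.77 and 0.92 CPM in WT of batch 3. It was close to silent in WT cells and stood higher in batch 1 KO than in batch 3 KO libraries (log2 fold change 3.69, SE 0.46, adjusted p = 1.5e-05, with 4.48 in batch 1 and 2.14 in batch 3 alone). The synaptic leucine-rich repeat protein Lrrtm4 had 26.7, 32.2 and 36.3 CPM in KO and 5.68, 6.1 and 5.22 CPM in WT of batch 1, and 18.4 and 12.8 CPM in KO and 2.56 and 3.25 CPM in WT of batch 3. Lrrn2, another neuronal leucine-rich repeat protein, with 3 deep regions, had 98.3, 90.1 and 80.3 CPM in KO and 14.6, 21.3 and 21.5 CPM in WT of batch 1, and 191 and 193 CPM in KO and 45.4 and 49 CPM in WT of batch 3. Both rose in each batch, and Lrrn2 was higher in batch 3 than in batch 1 in either genotype (log2 fold change 2.46, SE 0.17, adjusted p = 1.1e-07, with 2.45 in batch 1 and 2.42 in batch 3 alone for Lrrtm4; log2 fold change 2.14, SE 0.11, adjusted p = 1.6e-08, with 2.19 in batch 1 and 2.02 in batch 3 alone for Lrrn2). Pdzrn3, a ubiquitin ligase, had 89.5, 124 and 94.2 CPM in KO and 13.1, 13.5 and 11.7 CPM in WT of batch 1, and 21.2 and 18.2 CPM in KO and 10.2 and 10.5 CPM in WT of batch 3. Its rise was smaller in batch 3 (log2 fold change 2.23, SE 0.33, adjusted p = 6.5e-05, with 2.98 in batch 1 and 0.92 in batch 3 alone).

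Pcsk6, a proprotein convertase that acts on growth factor precursors, had 12.1, 9.99 and 13.9 CPM in KO and 4.48, 2.72 and 2.34 CPM in WT of batch 1, and 25 and 25.3 CPM in KO and 2.69 and 4.53 CPM in WT of batch 3. Nynrin had 146, 134 and 137 CPM in KO and 22.1, 25.3 and 26.9 CPM in WT of batch 1, and 80.4 and 65.6 CPM in KO and 27 and 16.4 CPM in WT of batch 3. Zfp781, a zinc finger gene, had 9.49, 14.4 and 11.9 CPM in KO and 2.46, 2.65 and 2.56 CPM in WT of batch 1, and 9.9 and 6.56 CPM in KO and 1.58 and 2.48 CPM in WT of batch 3. These 3 rose by 2.28, 2.20 and 2.15 on the log2 scale (SE 0.23, 0.16 and 0.19), and Zfp781 belongs to a large family of related genes between which the authors' counting could divide reads. KO and WT libraries of all 10 genes did not overlap in either batch, as the naming rule demands. In the Het libraries of batch 1 Tnrc6c stood at 109.9, 115 and 126 CPM, Naglu at 16.7, 13.6 and 17 CPM and Lsm10 at 14.7, 14.6 and 16.4 CPM, near their WT levels. Shisa9 stood at 3.16, 1.97 and 4.51 CPM in Het, above its WT libraries of batch 1 (log2 fold change 1.31). Lrrn2 had a log2 fold change of −0.43 in Het, and neither gene was called there.

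Among the hosts that fell most were receptors, a channel and amino acid transporters. Bdkrb2, the bradykinin B2 receptor, had 0.382, 0.177 and 0.291 CPM in KO and 30.8, 11.7 and 10.2 CPM in WT of batch 1, and 0.488 and 0.783 CPM in KO and 10.9 and 14.1 CPM in WT of batch 3. It was almost lost from KO cells, and 1 WT library of batch 1 lay well above the others (log2 fold change −5.15, SE 0.43, adjusted p = 5.2e-07, with −5.94 in batch 1 and −4.26 in batch 3 alone). Golga7b had 0.491, 0.118 and 0.291 CPM in KO and 28.4, 21.8 and 20.7 CPM in WT of batch 1, and 0.976 and 1.2 CPM in KO and 14.2 and 8.91 CPM in WT of batch 3. Its fall was smaller in batch 3 (log2 fold change −4.86, SE 0.42, adjusted p = 6.5e-07, with −6.27 in batch 1 and −3.39 in batch 3 alone). Kcna2, the voltage-gated potassium channel Kv1.2, had 71, 93.2 and 84.8 CPM in KO and 371, 298 and 325 CPM in WT of batch 1, and 83.2 and 57.7 CPM in KO and 381 and 424 CPM in WT of batch 3. The groups stood far apart in both batches (log2 fold change −2.20, SE 0.13, adjusted p = 3.1e-08, with −2.03 in batch 1 and −2.51 in batch 3 alone), and of its 2 deep regions the stronger (chromosome 3, 107113672 to 107113795, plus strand, exon 3) sat 88.5% into the exon. Camk2b, the beta subunit of calcium/calmodulin-dependent kinase II, had 53.5, 20.5 and 38.7 CPM in KO and 324, 370.3 and 379 CPM in WT of batch 1, and 133 and 143 CPM in KO and 448 and 378 CPM in WT of batch 3. KO libraries kept more of it in batch 3 (log2 fold change −2.58, SE 0.31, adjusted p = 1e-05, with −3.28 in batch 1 and −1.58 in batch 3 alone), and its region was among the weak ones, with folds of 2.04 to 2.34.

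Slc1a5, a glutamine carrier, had 4.04, 2.31 and 1.53 CPM in KO and 18.7, 20.0 and 24.1 CPM in WT of batch 1, and 10.0 and 14.4 CPM in KO and 39.2 and 41 CPM in WT of batch 3. Slc43a1, a carrier of large neutral amino acids, had 3.33, 3.13 and 2.55 CPM in KO and 12.3, 14.3 and 19.2 CPM in WT of batch 1, and 4.81 and 7.35 CPM in KO and 22.1 and 20.8 CPM in WT of batch 3. Both transporters fell in each batch (log2 fold changes −2.39 and −2.11, SE 0.26 and 0.18). Chst3, which sulfates chondroitin, had 29.2, 27.6 and 23.5 CPM in KO and 87.3, 85.5 and 93.2 CPM in WT of batch 1, and 10.5 and 11.5 CPM in KO and 102 and 84.8 CPM in WT of batch 3. Its fall was larger in batch 3 (log2 fold change −2.24, SE 0.20, adjusted p = 1e-06, with −1.76 in batch 1 and −3.08 in batch 3 alone). Tshz2, a teashirt zinc finger factor, had 2.02, 2.72 and 2.84 CPM in KO and 11.2, 14.4 and 15.5 CPM in WT of batch 1, and 3.49 and 4.33 CPM in KO and 29.998 and 31.8 CPM in WT of batch 3 (log2 fold change −2.68, SE 0.16, adjusted p = 3.5e-08). Cd93, a C-type lectin receptor, had 7.75, 2.13 and 4.44 CPM in KO and 109.6, 89 and 107 CPM in WT of batch 1, and 26 and 28.4 CPM in KO and 81.1 and 66.7 CPM in WT of batch 3. Its KO level was higher in batch 3, where it fell less (log2 fold change −3.11, SE 0.50, adjusted p = 0.00012, with −4.43 in batch 1 and −1.44 in batch 3 alone). Mboat1, a lysophospholipid acyltransferase, had 1.58, 0.946 and 0.947 CPM in KO and 4.92, 4.71 and 5.54 CPM in WT of batch 1, and 1.95 and 2.41 CPM in KO and 8.4 and 11.3 CPM in WT of batch 3, and fell by 2.13 on the log2 scale (SE 0.19). In Het libraries Cd93 stood at 144, 96.2 and 98.6 CPM and Kcna2 at 355, 340.5 and 351 CPM, near WT. Golga7b and Slc43a1 had log2 fold changes of −0.49 and −0.48 in Het and were not called there.

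**Figure D5:**
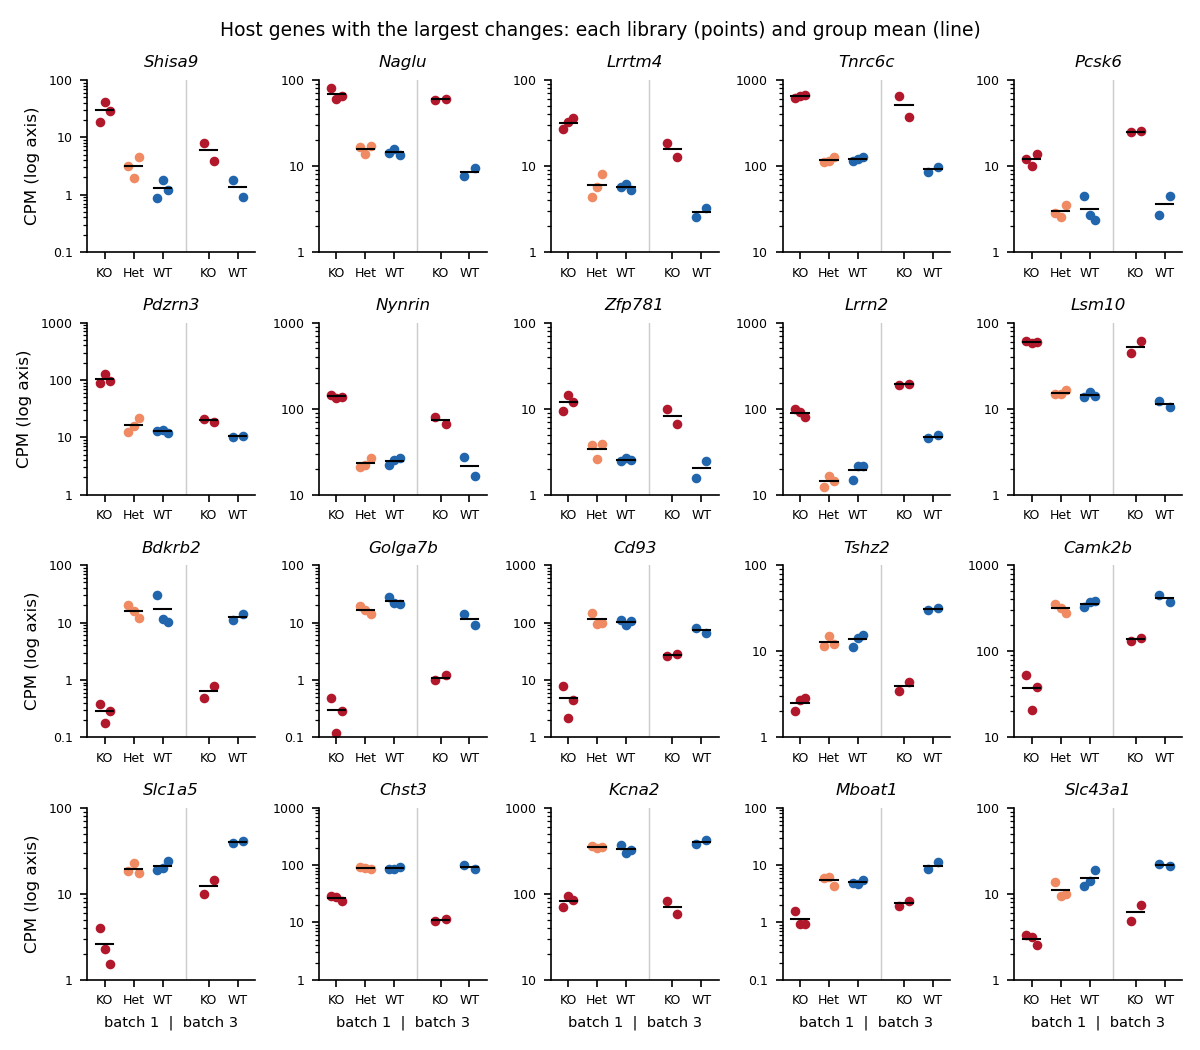
CPM on a log axis (y axis) of the 10 host genes with the largest rise (upper 2 rows) and the 10 with the largest fall (lower 2 rows) in every library, by genotype and batch (x axis); points are libraries and lines group means. KO libraries lie apart from WT in each panel and batch, as the rule for choosing these genes requires, with Tnrc6c at a mean of 645 CPM in KO and 122 CPM in WT of batch 1.

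Few m6A factors were hosts, and hosts were a small part of all genes tested as well (1616 of 13726). None of the 11 listed symbols of the writer complex and neither eraser (Fto, Alkbh5) had a deep region, although 6 writer genes and both erasers had a region elsewhere in their exons. Of the 11 readers listed, Ythdf2 and Igf2bp2 were hosts. Ythdf2, the reader that promotes decay, had 355, 364 and 344 CPM in KO and 157, 164 and 175 CPM in WT of batch 1, and 308 and 288 CPM in KO and 115 and 124 CPM in WT of batch 3. KO libraries lay above all WT libraries in both batches (log2 fold change 1.19, SE 0.061, adjusted p = 1.2e-08, with 1.07 in batch 1 and 1.32 in batch 3 alone). Its region (chromosome 4, 132181537 to 132181688, minus strand, exon 5) lay 82.4% into the last exon with folds of 5.59 to 9.88. Igf2bp2, a reader known for stabilising bound RNA, had 25.3, 24.5 and 28.5 CPM in KO and 46.4, 38.8 and 47.3 CPM in WT of batch 1, and 57 and 67.4 CPM in KO and 86.7 and 87.7 CPM in WT of batch 3. It fell in KO without overlap in either batch (log2 fold change −0.65, SE 0.089, adjusted p = 3.3e-05, with −0.80 in batch 1 and −0.48 in batch 3 alone). Over all 10 readers tested 4 were higher and 4 lower, and of 9 writer genes 6 were higher and 2 lower.

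Of 25 genes of mRNA decay tested, 4 were hosts. Beside Tnrc6c these were Tob1 and Tob2, adaptors that bring the CCR4-NOT deadenylase to its targets, and Cnot2, a subunit of that complex. Tob1 had 66.8, 53.5 and 57 CPM in KO and 36.1, 37 and 37 CPM in WT of batch 1, and 149 and 158 CPM in KO and 109 and 73.8 CPM in WT of batch 3. It rose in both batches, in which its levels differed (log2 fold change 0.71, SE 0.097, adjusted p = 3e-05, with 0.65 in batch 1 and 0.75 in batch 3 alone). Tob2 rose over batches (log2 fold change 0.42, SE 0.09, adjusted p = 0.0012, with 0.51 in batch 1 and 0.24 in batch 3 alone) and was not called in batch 3 alone, and Cnot2 was not called (−0.05, SE 0.052). In the whole list 7 genes were higher and 7 lower (median log2 fold change 0.01), and of its hosts 3 were higher and 0 lower.

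Several hosts encode enzymes and readers of the histone marks the study followed. Of 8 histone acetyltransferases tested, 5 were hosts. Crebbp, which acetylates H3K27, had 166, 181 and 160.4 CPM in KO and 106, 101.2 and 117 CPM in WT of batch 1, and 181 and 125 CPM in KO and 112 and 122 CPM in WT of batch 3. Its relative Ep300, with 2 deep regions, had 118, 125 and 123 CPM in KO and 82.5, 80.1 and 84.3 CPM in WT of batch 1, and 212 and 143 CPM in KO and 148 and 152 CPM in WT of batch 3. In batch 1 the KO libraries of both genes lay above WT. In batch 3 those of Crebbp also lay above WT, the lower one narrowly, while those of Ep300 overlapped WT (log2 fold change 0.54, SE 0.096, adjusted p = 0.00026, with 0.61 in batch 1 and 0.39 in batch 3 alone for Crebbp; log2 fold change 0.44, SE 0.095, adjusted p = 0.0013, with 0.54 in batch 1 and 0.24 in batch 3 alone for Ep300). Batch 3 alone called neither (adjusted p = 0.13 and 0.35). Kat6b rose (0.47, SE 0.099), Kat2a fell (−0.36, SE 0.086), neither of them called in batch 3 alone, and Kat6a was not called (0.10, SE 0.09). Of 26 Polycomb subunits tested the hosts were Cbx2 and Cbx8, chromodomain proteins that read methylated H3K27. Cbx2 had 41.7, 40.8 and 41.5 CPM in KO and 29.5, 32.3 and 37.4 CPM in WT of batch 1, and 48.1 and 53.6 CPM in KO and 38.8 and 36.6 CPM in WT of batch 3. Both rose over batches (log2 fold change 0.37, SE 0.08, adjusted p = 0.0013, with 0.29 in batch 1 and 0.43 in batch 3 alone for Cbx2; log2 fold change 0.52, SE 0.10, adjusted p = 0.00052, with 0.45 in batch 1 and 0.58 in batch 3 alone for Cbx8), but batch 3 alone called neither (adjusted p = 0.057 and 0.07). In the whole list 7 were higher and 9 lower. Hdac4, the only deacetylase among the hosts, and Kmt2a and Kdm1a, which methylate and demethylate H3K4, were not called (log2 fold changes 0.13, −0.04 and −0.000954, SE 0.075, 0.14 and 0.049).

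In the Notch pathway, which keeps progenitors undifferentiated, 6 of 20 genes tested were hosts and 5 of them rose. The receptor Notch2, with 3 deep regions, had 276, 335 and 311 CPM in KO and 70.1, 84.5 and 88.6 CPM in WT of batch 1, and 152 and 99.2 CPM in KO and 81.1 and 74.2 CPM in WT of batch 3. The receptor Notch1, also with 3, had 513, 535 and 521 CPM in KO and 246, 257 and 270.4 CPM in WT of batch 1, and 537 and 351 CPM in KO and 351 and 365 CPM in WT of batch 3. The rise of both was larger in batch 1 (log2 fold change 1.44, SE 0.20, adjusted p = 4.1e-05, with 1.89 in batch 1 and 0.69 in batch 3 alone for Notch2; log2 fold change 0.74, SE 0.14, adjusted p = 0.00038, with 0.99 in batch 1 and 0.31 in batch 3 alone for Notch1). For Notch1 batch 3 alone gave no call (adjusted p = 0.27), and 1 KO library there stood at the level of the lower WT library. The co-activator Maml1 had 40.9, 44.1 and 32.7 CPM in KO and 22.6, 22.5 and 23.9 CPM in WT of batch 1, and 89.6 and 88.7 CPM in KO and 50.9 and 56.6 CPM in WT of batch 3. The groups did not overlap and it rose in each batch (log2 fold change 0.76, SE 0.079, adjusted p = 3.2e-06, with 0.74 in batch 1 and 0.73 in batch 3 alone). Numbl, a relative of the Notch inhibitor Numb, rose over batches (log2 fold change 0.99, SE 0.18, adjusted p = 0.00025, with 1.35 in batch 1 and 0.36 in batch 3 alone), and was not called in batch 3 alone (adjusted p = 0.19). Hes6, known for promoting neuronal differentiation, rose over batches and was not called in batch 1 alone (log2 fold change 0.30, SE 0.095, adjusted p = 0.015, with 0.11 in batch 1 and 0.52 in batch 3 alone). Without the second WT library of batch 3 its value was 0.18 and not called (adjusted p = 0.093). The fringe enzyme gene Rfng was not called (0.04, SE 0.087). The whole list had 12 higher and 3 lower, with a median log2 fold change of 0.50, against 0.03 for all genes tested.

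Other signalling pathways had fewer hosts. In the Hedgehog pathway the transcription factor Gli2 had 12.8, 14.7 and 11.1 CPM in KO and 1.77, 3.38 and 2.71 CPM in WT of batch 1, and 33.1 and 25.6 CPM in KO and 7.35 and 12 CPM in WT of batch 3. KO lay above WT in each batch (log2 fold change 1.98, SE 0.21, adjusted p = 3.6e-06, with 2.26 in batch 1 and 1.61 in batch 3 alone). Its stronger region (chromosome 1, 118834618 to 118834784, minus strand, exon 14) had folds of 6.15 to 7.74 at 84.4% of the exon. The receptor Ptch1 was not called over batches (0.31, SE 0.15), but batch 1 alone had it higher and called (0.53, adjusted p = 0.0002), without the second KO library of batch 3 (0.47, adjusted p = 0.0003) and without the first WT library of batch 3 (0.40, adjusted p = 0.035). The list had 3 higher and 3 lower of 9. In the Wnt pathway the receptor Fzd5 rose (log2 fold change 0.60, SE 0.12, adjusted p = 0.00083, with 0.44 in batch 1 and 0.78 in batch 3 alone) and the scaffold Apc was not called over batches (0.18, SE 0.094) but was higher in batch 1 alone (0.22, adjusted p = 0.0076), with 11 higher and 2 lower of 24 in the list. In the BMP and TGF-beta pathway Id2, an inhibitor of differentiation factors, had 102, 122 and 109.5 CPM in KO and 42.5, 55.6 and 49.9 CPM in WT of batch 1, and 90.3 and 79.5 CPM in KO and 46.6 and 52.4 CPM in WT of batch 3. KO libraries stood above WT in each batch (log2 fold change 1.02, SE 0.10, adjusted p = 2.2e-06, with 1.14 in batch 1 and 0.78 in batch 3 alone). The repressor Ski rose by 0.85 (SE 0.12) and the signal transducer Smad3 by 0.40 (SE 0.089). The ubiquitin ligase Smurf1 fell by 0.18 (SE 0.059), and the receptor Acvr2b was not called over batches (0.18, SE 0.11) but was higher in batch 1 alone (0.37, adjusted p = 0.0038). Smad3 and Smurf1 were not called in batch 3 alone. That list had 14 higher and 2 lower of 22.

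Markers and regulators of neural stem cells included 4 hosts among 24 tested, and all of these are transcription factors. Sox9, a gliogenic factor, had 68.4, 107 and 87.6 CPM in KO and 81.4, 88.9 and 85.5 CPM in WT of batch 1, and 254 and 229.9 CPM in KO and 280.1 and 275 CPM in WT of batch 3. KO and WT overlapped in batch 1, and it was not called (−0.06, SE 0.10). The Notch effector Hes1 and the Hedgehog factor Gli3 were not called either (−0.27 and −0.20, SE 0.16 and 0.094). For Hes1, batch 1 alone gave a call (−0.50, adjusted p = 0.024), as did the fit without the second KO library of batch 3 (−0.42, adjusted p = 0.014). The cortical factor Emx2 passed narrowly over batches (log2 fold change 0.24, SE 0.088, adjusted p = 0.03, with 0.28 in batch 1 and 0.14 in batch 3 alone), was called in neither batch alone, and lost the call when any of 7 single libraries was left out. The list had 7 higher and 9 lower. Of 21 neuronal genes tested the only host was Ina, the neuronal intermediate filament internexin, with 0.218, 0.946 and 0.364 CPM in KO and 2.27, 1.59 and 1.7 CPM in WT of batch 1, and 1.39 and 1.99 CPM in KO and 4.79 and 8.49 CPM in WT of batch 3. It fell at these low levels (log2 fold change −1.90, SE 0.30, adjusted p = 0.00011, with −1.88 in batch 1 and −1.96 in batch 3 alone).

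Among 18 cyclins, kinases and inhibitors of the cell cycle, the only host was Cdkn2b, the inhibitor p15, with 29.8, 23.2 and 25.1 CPM in KO and 69.9, 66.4 and 70.9 CPM in WT of batch 1, and 1.67 and 2.53 CPM in KO and 9.19 and 6.08 CPM in WT of batch 3. It fell in both batches, and its level was several times lower in batch 3 in either genotype (log2 fold change −1.53, SE 0.13, adjusted p = 6.5e-07, with −1.44 in batch 1 and −1.85 in batch 3 alone), in a list with 1 higher and 12 lower. Of the Myc family and its partners, 5 of 12 tested were hosts. Mycn had 14.1, 16.7 and 13.3 CPM in KO and 7.07, 5.17 and 5.91 CPM in WT of batch 1, and 6.2 and 8.43 CPM in KO and 5.25 and 6.08 CPM in WT of batch 3. It rose over batches and was not called in batch 3 alone (log2 fold change 0.94, SE 0.20, adjusted p = 0.0013, with 1.25 in batch 1 and 0.37 in batch 3 alone). Mlxip, Mycl and Max, the common partner of the Myc proteins, rose by 0.81, 0.58 and 0.44 over batches (SE 0.13, 0.097 and 0.088), of which batch 3 alone called Max. Myc itself had 17.9, 39.3 and 34.5 CPM in KO and 43.9, 63.2 and 89.8 CPM in WT of batch 1, and 149 and 246 CPM in KO and 161 and 166 CPM in WT of batch 3. Its KO libraries lay below WT in batch 1 and on both sides of WT in batch 3, and it was not called over batches (log2 fold change −0.54, SE 0.30, adjusted p = 0.13, with −1.14 in batch 1 and 0.27 in batch 3 alone) but was lower in batch 1 alone (adjusted p = 0.017). The list had 9 higher and 2 lower.

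Immediate early genes have transcripts that are made within minutes of a stimulus and are short-lived. This list had the largest number of hosts, 9 of 23 tested, of which 5 were lower and 1 higher. By share, the histone acetyltransferases (5 of 8) and the Myc family and its partners (5 of 12) had more hosts. Ier3, an early response gene, had 5.18, 4.85 and 5.03 CPM in KO and 24, 20.0 and 20.2 CPM in WT of batch 1, and 5.16 and 10.5 CPM in KO and 22.9 and 32.6 CPM in WT of batch 3. It fell in both batches without overlap (log2 fold change −1.97, SE 0.18, adjusted p = 1.1e-06, with −2.12 in batch 1 and −1.81 in batch 3 alone). Egr3, a zinc finger transcription factor, had 5.62, 14.6 and 9.76 CPM in KO and 11, 23.3 and 36.4 CPM in WT of batch 1, and 7.11 and 17.8 CPM in KO and 58.9 and 27.7 CPM in WT of batch 3. Its libraries were widely spread, and KO and WT overlapped in batch 1 (log2 fold change −1.47, SE 0.36, adjusted p = 0.0032, with −1.28 in batch 1 and −1.79 in batch 3 alone). Egr1 of the same family fell by 0.68 on the log2 scale (SE 0.16). The calls for Egr2 (−0.87, SE 0.33, adjusted p = 0.034) and for the phosphatase gene Dusp1 (−0.38, SE 0.16, adjusted p = 0.046) were lost when single libraries were left out, 6 of them for Egr2 and 7 for Dusp1. Egr2 stood at −0.52 without the first WT library of batch 3, whose level was 48.6 CPM beside 19 CPM in the other. Btg2, an antiproliferative partner of the deadenylases, had 442, 336 and 369.9 CPM in KO and 175, 216 and 181 CPM in WT of batch 1, and 165 and 136 CPM in KO and 171 and 94.2 CPM in WT of batch 3. It rose over batches, while in batch 3 alone KO and WT overlapped and it was not called (log2 fold change 0.68, SE 0.19, adjusted p = 0.006, with 0.97 in batch 1 and 0.19 in batch 3 alone). Nr4a1 and Klf4 were not called (0.06 and −0.01, SE 0.29 and 0.13). Zfp36, which encodes an mRNA-decay factor, was not called over batches (−0.25, SE 0.28), but it was called in each batch alone in opposite directions, higher in batch 1 (0.39, adjusted p = 0.041) and lower in batch 3 (−1.17, adjusted p = 0.016). In the whole list 4 were higher and 12 lower.

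Hosts of the most enriched regions moved in both directions. Lnx2, whose lowest fold was the highest of all, had 12.3, 10.9 and 10.3 CPM in KO and 11, 10.5 and 9.64 CPM in WT of batch 1, and 14.2 and 12.8 CPM in KO and 11.6 and 15.1 CPM in WT of batch 3. KO and WT overlapped, and it was not called (0.07, SE 0.10). Pars2 had 28.1, 27.4 and 26.6 CPM in KO and 12, 14.5 and 14.9 CPM in WT of batch 1, and 16.7 and 20.5 CPM in KO and 7.42 and 10.3 CPM in WT of batch 3. It rose in both batches (log2 fold change 1.02, SE 0.11, adjusted p = 3.8e-06, with 0.96 in batch 1 and 1.07 in batch 3 alone). Ror1 rose over batches (log2 fold change 1.58, SE 0.26, adjusted p = 0.00017, with 2.06 in batch 1 and 0.83 in batch 3 alone), and Cyb5rl (0.70, SE 0.11), Zbtb49 (0.40, SE 0.099), Pth1r (0.89, SE 0.28) and Ndor1 (0.26, SE 0.088) rose as well, none of these 5 being called in batch 3 alone. The call for Pth1r was lost without the first WT library of batch 1. That for Ndor1 was lost without any of 4 single libraries, in both genotypes. Sertm1 and Proser2 fell (−1.95 and −1.59, SE 0.34 and 0.47), the second of them with no value in batch 3 alone, where it was below the filter, and Syt14, Alg8 and Btbd9 were not called over batches (0.12, −0.19 and −0.12, SE 0.25, 0.18 and 0.093). Batch 1 alone called Alg8 and Btbd9 lower (−0.69 and −0.23, adjusted p = 0.00087 and 0.01), and Btbd9 was also called without the first KO library of batch 3 (−0.23).

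Of the 5 hosts with most regions, Rlf had 321, 370.1 and 352 CPM in KO and 136, 111 and 115 CPM in WT of batch 1, and 214 and 127 CPM in KO and 76.3 and 72.9 CPM in WT of batch 3. It rose in both batches (log2 fold change 1.40, SE 0.12, adjusted p = 8.2e-07, with 1.49 in batch 1 and 1.19 in batch 3 alone), and Zbed4 rose too (log2 fold change 0.57, SE 0.065, adjusted p = 6.5e-06, with 0.42 in batch 1 and 0.76 in batch 3 alone). Cspg4 and Mast4 fell (log2 fold change −1.22, SE 0.15, adjusted p = 1e-05, with −1.01 in batch 1 and −1.58 in batch 3 alone for Cspg4; log2 fold change −0.92, SE 0.092, adjusted p = 2.1e-06, with −0.98 in batch 1 and −0.89 in batch 3 alone for Mast4). Peg10 had 114, 50.8 and 74.9 CPM in KO and 88.5, 99.2 and 121 CPM in WT of batch 1, and 906 and 1040.1 CPM in KO and 487 and 597 CPM in WT of batch 3. Its level was several times higher in batch 3 in either genotype, and it was not called over batches but rose in batch 3 alone (log2 fold change 0.12, SE 0.25, adjusted p = 0.69, with −0.40 in batch 1 and 0.85 in batch 3 alone; adjusted p in batch 3 = 0.0091). Among the genes whose sequence is printed, Mrpl43 had 103, 104 and 99.1 CPM in KO and 31.6, 34.8 and 35.2 CPM in WT of batch 1, and 101.1 and 148 CPM in KO and 32.1 and 29.5 CPM in WT of batch 3. It rose in both batches without overlap (log2 fold change 1.76, SE 0.11, adjusted p = 4.7e-08, with 1.56 in batch 1 and 2.02 in batch 3 alone). Its region overlaps the promoter window of Twnk on the opposite strand, and the strand setting of the counting is not given in the sources used here. Pcif1 rose over batches and was not called in batch 3 alone (log2 fold change 0.45, SE 0.078, adjusted p = 0.00022, with 0.56 in batch 1 and 0.23 in batch 3 alone). Nkx2-2 passed the low-count filter in batch 3 alone, where it fell (log2 fold change −0.84, SE 0.25, adjusted p = 0.035).

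Loss of 1 allele gave no called change in host RNA with edgeR. In Het against WT in batch 1 it called 0 of 1622 hosts, against 2 of 13677 genes tested (0.0146%). At an unadjusted p below 0.05 there were 169 hosts (10.4%), against 1175 of all genes (8.59%). DESeq2 called 3 hosts (Gm3002, Rasl11a and Tmem121, named after their values were seen), against 26 of all 13677 genes. With limma on log2(FPKM + 0.1) 0 hosts were called, against 2 genes in all. Without the first WT library edgeR called 1 host. The median log2 fold change of hosts was −0.01 in Het and 0.26 in KO, both against the same 3 WT libraries. Ythdf2 had 161, 153 and 158 CPM in Het, against 157, 164 and 175 CPM in WT, and Notch2 had 82.4, 89.5 and 87.2 CPM in Het, against 70.1, 84.5 and 88.6 CPM in WT.

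Promoters of hosts carried the active mark more often and the repressive mark less often than those of all genes tested in each of the 4 lines. Hosts had a median RNA level of 37.7 CPM, against 29.1 CPM for all genes tested, and the comparison was not matched for level. An H3K27ac peak lay within 1000 bases of the transcript start for 93.8% and 95.5% of the 1616 hosts tested in the KO lines 530 and 534, against 96.7% and 96.1% in the WT lines 532 and 541. Over all 13456 genes tested with a transcript start it was 85% and 87.8% in KO, against 88.6% and 87.4% in WT. An H3K27me3 peak was there for 10.1% and 12% of hosts in KO lines, against 9.65% and 9.16% in WT lines, and for 13.2% and 15.8% of all genes in KO, against 13.7% and 12.2% in WT. The lists differ in length, from 55130 to 80947 H3K27ac peaks and from 33188 to 59561 H3K27me3 peaks, and 2 lines against 2 cannot reach a two-sided exact p below 0.333, so no test was made. Few hosts had a mark in both lines of 1 genotype only. H3K27me3 was in both KO lines and neither WT line for 26 hosts (1.61%), whose median log2 fold change of RNA was −0.75, and in both WT lines and neither KO line for 11 (0.681%), with a median of 1.60. Over all genes tested the same patterns held 160 genes (1.19%), with a median of −0.69, and 77 genes (0.572%), with 0.75. H3K27ac was in both KO lines only for 2 hosts (0.124%), against 41 of all genes tested (0.305%), with median log2 fold changes of RNA of 1.43 and 1.06. It was in both WT lines only for 13 hosts (0.804%), against 124 of all genes tested (0.922%), and here the medians had opposite signs, 0.55 for the hosts and −0.37 for all genes. H3K27ac was in all 4 lines for 1505 hosts, whose median log2 fold change was 0.29, against 0.01 for the 11124 genes of all those tested with it in all 4.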

How the data were processed

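Peaks and RNA tables were used as deposited. The submitters' processing notes name build mm10, MACS2, Bowtie2 2.3.1, Cuffdiff, Cufflinks, TopHat and TopHat2 2.1.0, without roles. Each deposited m6A or chromatin peak carries a fold enrichment over input (a ratio) and a −log10 q from the authors' peak caller, called per IP and input or per line and its own input. The 4 m6A lists were intersected by base and placed on the transcripts that the authors' batch 3 merged assembly marks as matching a known transcript (class code =); their genome coordinates are as deposited. The depth behind peaks is unknown.

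Per the file headers the deposited RNA tables hold estimated counts of fragments for every locus and library (5.31% of batch 1 and 2.31% of batch 3 values were not whole within 1e-09), and FPKM scaled by the authors. Counts were rounded and summed per gene. Loci of no known gene held 0.352% to 2.16% of fragments and were left out. The batch 2 table is byte for byte that of batch 1, so the 6 libraries of batch 2 were not analysed. The tables number libraries within a group without tying them to a culture line. The design text calls the samples biological replicates.

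13 libraries were fitted with edgeR 4.0.16 (R 4.3.3; TMM factors 0.968 to 1.04, default low-count filter, robust quasi-likelihood F test, two-sided, Benjamini-Hochberg over all genes tested), with batch as a covariate, within batches, and with an interaction. SE is the log2 fold change over the square root of F. Adjusted p-values of single genes are from edgeR. CPM are joint over both batches. Alternatives used DESeq2 1.42.0 and limma 3.58.1 on log2(FPKM + 0.1) and log2(FPKM + 1). In simulated data, with 100 genes changed 1.5-fold and 100 changed 2-fold, the tests recovered 54% and 75% for KO against WT over batches (13726 genes), 60% and 83% for Het against WT (13677 genes), and 22% and 64% for batch 3 alone (12836 genes). Unchanged genes called were 6, 16 and 12 in the same order. The simulation was drawn 1 time and gave genes no difference in level or in KO effect between batches. In the data 8689 genes were called for KO against WT over batches, far more than were changed in the simulation. The interaction with batch was called for 18.9% of genes, so recovery in the data may differ.

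RefSeq promoter windows (GRCm38.p6) shared their gene start with a transcript start of the assembly for 76.5% of 20210 genes. Named are the 12 regions with the highest lowest fold, the 10 hosts higher and 10 lower with the largest change whose KO and WT libraries did not overlap in either batch and that reached 5 CPM, the 5 hosts with most regions, hosts in 17 gene lists and regions at the 25% line. The regions and gene lists were chosen with earlier results of these data known. Python 3.11.15, pandas 2.3.3 and numpy 2.4.6 were used.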

Additional observations from a re-analysis of the deposited data

Results flagged for a closer look

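The KO effect on 20 named host genes differed between batch 1 and batch 3 by the interaction term of the edgeR fit (adjusted p below 0.05). The labels give the batches different dates and culture lines, which cannot be told apart. Hosts with a larger rise in batch 1 included the Notch receptors: Notch2 had log2 fold changes of 1.92 in batch 1 and 0.69 in batch 3 (difference 1.23, adjusted p = 0.0034), and Notch1 had log2 fold changes of 1.02 in batch 1 and 0.31 in batch 3 (difference 0.71, adjusted p = 0.024). The difference in log2 fold change, batch 1 minus batch 3, was 2.38 for Shisa9, 2.09 for Pdzrn3, 1.26 for Ror1, 1.03 for Numbl, 0.74 for Nynrin, 0.65 for Mlxip and 0.57 for Ski, all of which were above 0 in both batches. Hosts with a larger fall in batch 1 had negative differences, −2.95 for Cd93, −2.84 for Golga7b, −2.07 for Sertm1, −1.67 for Camk2b and −1.25 for Slc1a5. Chst3 fell more in batch 3 (difference 1.36) and Zbed4 rose more there (−0.31). The signs were opposite for Alg8 (−0.65 in batch 1 and 0.46 in batch 3, difference −1.12), Zfp36 (0.43 and −1.18, difference 1.60), Acvr2b (0.41 and −0.16, difference 0.56) and A930004D18Rik (0.42 and −0.93, difference 1.35).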

How the results depend on the processing

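The number of regions was 2011 and moved to 850 beyond 50% of the exon and 993 with a −log10 q of at least 3 in each list; with at least 100 shared bases it was 1490, with the batch 1 assembly 1873, and with 1 IP only 2310 or 2391. Hosts called (1148) ranged from 1084 to 1216 when 1 library was left out and from 1008 to 1159 under other tools, scalings and filters. Batch 3 alone, with fewer samples, called 674 hosts (518 higher and 156 lower) and 4075 genes in all. For Het against WT, DESeq2 called 3 hosts and leaving out 1 library gave 0 to 1. For KO against WT, more hosts were higher than lower over batches, in each batch alone and under the other tools, scalings and filters.

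For 90 named hosts, 1477 of 1618 alternative values kept direction and call, 65 lost the call, 25 gained one and 51 changed sign, which apart from Pth1r were not called over batches; the cause was not tested. Log2 fold changes of changed sign were, in batch 1 alone, A930004D18Rik 0.39, Kmt2a 0.15, Peg10 −0.40, Sox9 0.0060, Zfp36 0.39; in batch 3 alone, Acvr2b −0.15, Alg8 0.47, Btbd9 0.0074, Hes1 0.012, Kdm1a 0.022, Myc 0.27, Nr4a1 −0.64, Ptch1 −0.073, Pth1r −0.0047, Rfng −0.0038; with limma on log2(FPKM + 0.1), A930004D18Rik 0.054, Hdac4 −0.0092, Kat6a −0.016, Lnx2 −0.049, Rfng −0.11; and on log2(FPKM + 1), A930004D18Rik 0.10, Hdac4 −0.0088, Kat6a −0.016, Lnx2 −0.037, Rfng −0.10. Ranges on leaving out 1 library were A930004D18Rik −0.16 to 0.14, Kat6a −0.012 to 0.18, Kdm1a −0.040 to 0.021, Klf4 −0.11 to 0.058, Kmt2a −0.11 to 0.11, Nr4a1 −0.20 to 0.32, Peg10 −0.055 to 0.33, Rfng −0.020 to 0.066, Sox9 −0.16 to 0.015, Syt14 −0.032 to 0.25, Zfp36 −0.44 to 0.068. Calls lost without 1 library were those of Dusp1, Egr2, Emx2, Hes6, Ndor1 and Pth1r, and 22 named hosts called over batches were not called in batch 3 alone, nor was Pth1r, whose sign changed there. Calls gained without 1 library of batch 3 were those of Acvr2b, Apc, Hdac4, Hes1, Kat6a, Myc and Ptch1 (without the second KO library), Btbd9 (without the first) and Ptch1 (without the first WT library), and Gli3 gained one without the first KO or the first WT library of batch 1. The planned share of regions with a GGAC motif was not run, since no genome sequence was used here. No paired analysis was possible because the tables' replicate numbers are not tied to labelled cultures. What limits these results is the unknown read depth behind peaks, IPs from WT cells only, and 2 libraries a group in batch 3.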
